A study of Mus musculus with 6 samples.

Results

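Oligodendrocyte precursor cells (OPCs) and the committed oligodendrocyte precursors (COPs) that arise from them were followed in spinal cord through 10 genes, chosen by name: Pdgfra, Cspg4, Olig1, Olig2, Sox10, Gpr17, Bmp4, Enpp6, Bcas1 and Tnr. All 10 were found among the 25576 genes listed in the bulk-seq data, and each was listed in all 6 libraries. The libraries were made from total RNA of whole spinal cord after removal of ribosomal RNA, from FVB mice at postnatal day 4. Control mice were heterozygous for the Smn knockout and carried the human transgene (mSmn+/-, hSMN22tg/0), and SMA mice were homozygous for the knockout with the same transgene (mSmn-/-, hSMN22tg/0), so both groups carried human SMN2 and 1 or both mouse alleles were lost in every cell of the body. The labels give 3 libraries to each genotype. The methods of the study speak of triplicates with n = 1 per group, and nothing states which animals the libraries came from, so p-values measure only the spread between these libraries, which may be technical. The question was whether the transcripts of the precursor stages stood at other levels in the SMA cord than in the control cord. Levels are FPKM, fragments scaled to exon length and to the mapped fragments of the library. Differences are SMA minus control in log2(FPKM + 1), which understates the change of low genes.

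The oligodendrocyte lineage begins with OPCs, dividing cells that carry the PDGF receptor alpha and the NG2 proteoglycan and depend on PDGF from neurons and astrocytes. On leaving the cell cycle they pass through a short committed stage marked by Gpr17 and Bmp4, then become newly formed oligodendrocytes that express Enpp6 and Bcas1 and go on to make myelin. Gpr17, Bmp4, Enpp6 and Bcas1 are together called the committed genes below, a class that thus takes in newly formed cells. Olig1, Olig2 and Sox10 are transcription factors used throughout the lineage, and in the cord the first days after birth are a period in which OPCs, COPs and early myelinating cells are present together.

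The targeted gene gave no check of the labels. Smn1 measured 10.4, 8.64 and 11.9 FPKM in control replicates 1, 2 and 3 and 8.48, 9.30 and 11.1 FPKM in SMA replicates 1, 2 and 3. The ranges overlapped, with the lowest value in SMA replicate 1 and the second lowest in control replicate 2, so SMA and control below mean the libraries labelled so, and every direction rests on those labels.

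Control replicate 2 stood apart from the other 5 libraries. Its correlation with them in log2(FPKM + 1) across genes, which are not independent replicates, was 0.836 to 0.849, against 0.983 to 0.992 among the others. The hepatocyte list (24 of 24 genes in the files) summed to 33672 FPKM there and to 61.7 to 131 FPKM elsewhere, and its most abundant gene, Alb (serum albumin), measured 15894.5 FPKM against 24.6 to 56.2 FPKM. The erythroid list (9 of 10 genes in the files, led by Hbb-bs) summed to 18856 FPKM against 1115 to 1863 FPKM. No gene of either list was at 0 in control replicate 2. FPKM is a share of the library, and the median gene tested stood in control replicate 2 at 0.886 of its mean in the other 5. For the 10 precursor genes this median ratio was 0.788, with 9 of 10 genes below 1, from 0.694 for Cspg4 to 1.12 for Bmp4. For the neuron list it was 0.559 and for the astrocyte list 0.752. The part of the liver and blood transcripts in the levels of the precursor genes was not tested, and each comparison is given with and without this library.

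**Figure D1:**
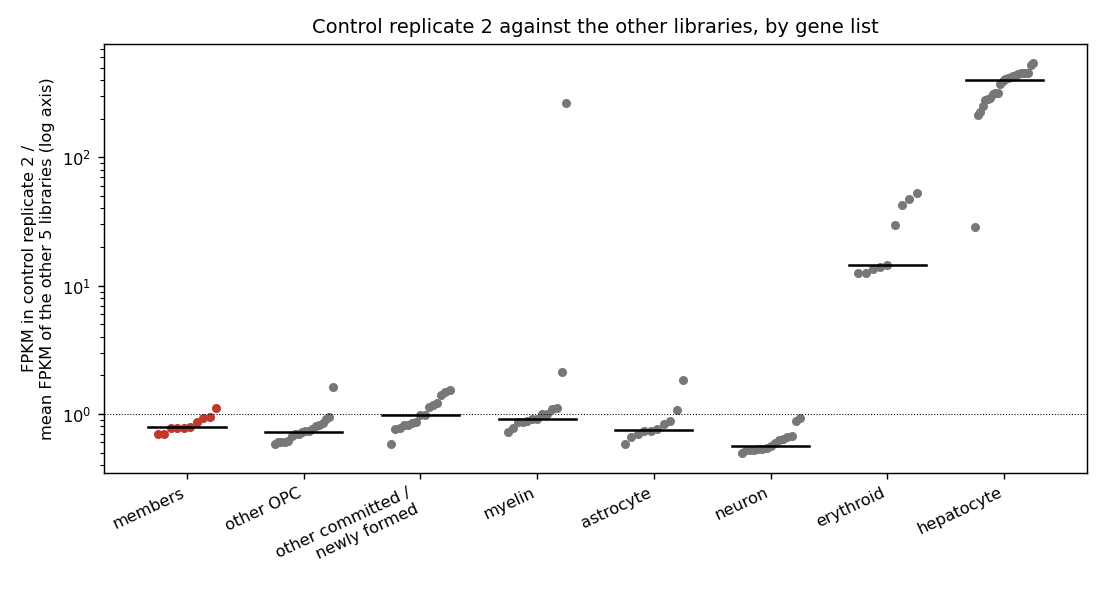
FPKM of each tested gene in control replicate 2 divided by its mean FPKM in the other 5 libraries, on a log axis, by gene list; each point is a gene, the line is the median of the list and red marks the 10 precursor genes. The precursor genes have a median ratio of 0.788 and neuronal genes 0.559, while hepatocyte genes have a median ratio of 400.

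Markers of spinal cord were found in every library, beside the hepatocyte and erythroid transcripts of control replicate 2. Neuronal genes summed to 2496 FPKM in control replicate 2 and to 3345 to 3804 FPKM in the other libraries, astrocyte genes to 669 and to 845 to 937 FPKM, and no gene of these lists was at 0 in any library. The 10 precursor genes together summed to 248, 198 and 280.4 FPKM in control replicates 1, 2 and 3 and to 237, 248 and 249 FPKM in SMA replicates 1, 2 and 3. Outside control replicate 2 the highest sum was in control replicate 3 and the lowest in SMA replicate 1, with control replicate 1 inside the SMA range.

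The precursor genes covered a wide span of levels per length. Mean FPKM over the 6 libraries was highest for Olig1 (58.3), followed by Gpr17 (45.0), Tnr (34.4), Bcas1 (33.5), Pdgfra (25.9), Olig2 (19.5), Sox10 (12.6), Cspg4 (6.77), Enpp6 (5.50) and Bmp4 (1.85). Among the 17088 genes tested, those with a mean of at least 0.5 FPKM, Olig1 stood at the percentile 94.5 and Bmp4 at 19.8, and all 10 passed this filter. Tnr and Bcas1 could not be ordered, since Tnr was the higher of the pair in 4 of 6 libraries. Cspg4 exceeded Enpp6 in 5 of 6 libraries. Every other neighbouring pair kept its order in all 6 libraries, although only the ranges of Olig2 and Sox10, of Sox10 and Cspg4, and of Enpp6 and Bmp4 were separate.

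The comparison over all 6 libraries found no difference in these genes beyond the spread of the libraries. With limma, 0 of 10 precursor genes had an adjusted p under 0.05, as did 0 of 17088 genes tested (0%). At an unadjusted p under 0.05 the count of precursor genes was again 0, while 409 genes (2.39%) reached it with a lower level in SMA and 581 (3.40%) with a higher one. Groups without overlap were found for 1 of 10 precursor genes, Enpp6, which was lower in SMA, against 6.67% of all genes tested in that direction and 10.3% in the other, so the share was near the background. The median difference was -0.0046 for the precursor genes and 0.04 for all genes tested. The directions were even, with 5 of 10 precursor genes below 0. Scaling the libraries to the same mean of the neuron list moved the median of all genes tested by -0.24, and all 10 were then below 0, with a median of -0.27 against -0.20 for all genes.

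Without control replicate 2, the committed genes Bcas1, Enpp6 and Gpr17 and the OPC gene Pdgfra set the groups apart, though none passed the adjusted threshold. Bcas1, Enpp6 and Pdgfra had an unadjusted p under 0.05 in limma, 3 of 10, where 5.20% of 16574 genes tested were lower and 5.27% higher at this threshold. In 4 of 10 genes, these 3 and Gpr17, all SMA values lay below both control values, against 13.9% of all genes lower and 14.2% higher without overlap. None of the 10 passed an adjusted p under 0.05 and the smallest adjusted p among them was 0.398; 2 of all genes tested (0.0121%) passed. The median difference was -0.07 for the precursor genes, 8 of 10 being below 0, and 0.0016 for all genes tested. As the tissue was taken whole, fewer cells of a stage and less RNA per cell cannot be told apart.

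**Figure D2:**
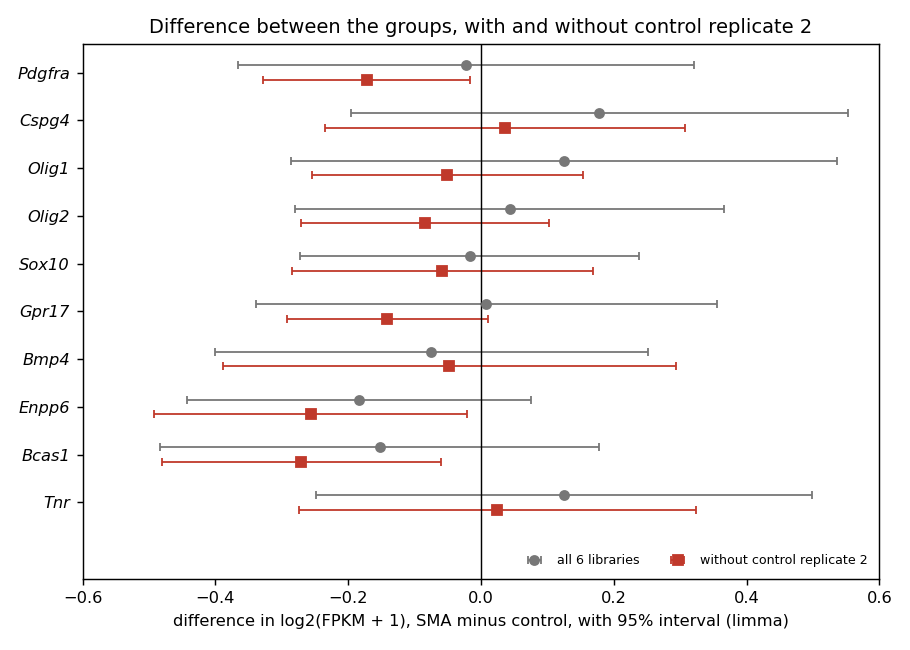
Difference between SMA and control in log2(FPKM + 1) for each precursor gene, with its 95% interval from limma, over all 6 libraries (grey circles) and without control replicate 2 (red squares). Over 6 libraries every interval includes 0; without control replicate 2 the intervals of Pdgfra, Enpp6 and Bcas1 lie below 0.

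RefSeq entries for promoters on GRCm38.p6 were matched for 6 of 10 genes, Pdgfra, Cspg4, Olig2, Bmp4, Enpp6 and Tnr. Of the genes whose groups were apart without control replicate 2, Enpp6 and Pdgfra are shown, together with Bmp4, whose groups overlapped. The 250 bases before the start site are printed 5′ to 3′ on the strand of the gene, and capitals mark the E-box letters CANNTG, which basic helix-loop-helix proteins such as Olig1 and Olig2 can bind, and the letters AACAAT, a core of SOX protein sites, on either strand. The windows are chr8:46986637-46986886 on the plus strand for Enpp6, chr5:75152001-75152250 on the plus strand for Pdgfra and chr14:46390670-46390919 on the minus strand for Bmp4, each just upstream of the RefSeq start.
Enpp6: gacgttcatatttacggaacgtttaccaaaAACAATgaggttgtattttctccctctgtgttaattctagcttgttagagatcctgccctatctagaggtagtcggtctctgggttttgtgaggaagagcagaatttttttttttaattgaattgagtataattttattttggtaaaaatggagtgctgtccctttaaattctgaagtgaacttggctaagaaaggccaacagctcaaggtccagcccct
Pdgfra: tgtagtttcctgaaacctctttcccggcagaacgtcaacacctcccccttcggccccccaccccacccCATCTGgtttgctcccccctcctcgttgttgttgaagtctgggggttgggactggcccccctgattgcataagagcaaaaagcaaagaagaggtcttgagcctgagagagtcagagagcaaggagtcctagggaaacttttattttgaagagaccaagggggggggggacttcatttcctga
Bmp4: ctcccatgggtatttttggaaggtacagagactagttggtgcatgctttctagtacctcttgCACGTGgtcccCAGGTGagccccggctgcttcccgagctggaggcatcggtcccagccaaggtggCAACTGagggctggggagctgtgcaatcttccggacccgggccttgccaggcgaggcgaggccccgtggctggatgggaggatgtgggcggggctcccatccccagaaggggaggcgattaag
Enpp6 held AACAAT 220 bases before its start and no CANNTG, and its window had 38.4% G and C against a median of 52.4% over all promoters in the table. Pdgfra held CATCTG, 182 bases before its start. Bmp4 held 3 matches to CANNTG, which begin 188, 177 and 123 bases before its start, and no AACAAT. Of 32851 promoters of the same length, 66.2% held CANNTG and 9.4% AACAAT, so a match to CANNTG is common. A match describes the window and is no evidence of binding, and Enpp6 and Pdgfra shared neither motif.

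Enpp6 encodes a choline-specific phosphodiesterase of the cell surface and marks cells that have just begun to differentiate. It measured 6.13, 5.25 and 6.40 FPKM in control replicates 1, 2 and 3 and 5.06, 4.99 and 5.20 FPKM in SMA replicates 1, 2 and 3. All SMA values were below all control values, by a narrow margin against control replicate 2 and a wider one against the other controls. The groups overlapped once the libraries were brought to the same FPKM total or the same quantiles. They stayed apart at the same total without hepatocyte and erythroid genes, a scaling chosen after seeing the data (difference -0.22). With scaling to the neuron list they were also apart (-0.43). Of all genes tested, 9.02% and 18.22% were lower without overlap under these scalings. The means were 5.93 ± 0.603 FPKM in control and 5.08 ± 0.110 FPKM in SMA (SD, n = 3 each), a difference of -0.18 with a 95% interval of -0.44 to 0.07 and a limma adjusted p of 0.683. The exact two-sided permutation p was 0.1, the smallest that 3 libraries against 3 can give. Without control replicate 2 the difference was -0.26 (95% interval -0.49 to -0.02, limma adjusted p = 0.443), with an exact permutation p of 0.1, also the smallest possible with 3 against 2.

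Bcas1 encodes a cytoplasmic protein that appears in early myelinating oligodendrocytes. Its values were 37.8, 29.7 and 38.7 FPKM in control replicates 1, 2 and 3 and 27.9, 34.2 and 32.9 FPKM in SMA replicates 1, 2 and 3. SMA replicate 1 was the lowest of all, control replicate 2 came next, and the other controls were above every SMA value, so that the groups overlapped only through control replicate 2. The means were 35.4 ± 4.95 FPKM in control and 31.7 ± 3.29 FPKM in SMA (SD, n = 3 each). The difference was -0.15 over 6 libraries (95% interval -0.48 to 0.18, limma adjusted p = 0.689) and -0.27 without control replicate 2 (95% interval -0.48 to -0.06, limma adjusted p = 0.398), with exact permutation p-values of 0.3 and 0.2. Enpp6 and Bcas1 were the 2 precursor genes whose difference was below 0 in all 18 settings of scaling, filter, pseudocount and left-out library, from -0.43 to -0.13 for Enpp6 and from -0.43 to -0.07 for Bcas1. The settings reuse the same libraries. Those of the filter, and a fit with the replicate number as a block, cannot change a difference, so the 18 are not separate checks.

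Gpr17, a G protein-coupled receptor that appears in committed precursors and is switched off as they mature, had the highest level of the committed genes among the 10. It measured 47.5, 36.1 and 51.8 FPKM in control replicates 1, 2 and 3 and 46.0, 43.1 and 45.7 FPKM in SMA replicates 1, 2 and 3. The SMA libraries were close together and lay between control replicate 2 and the other controls. The difference was 0.01 over 6 libraries and -0.14 without control replicate 2 (95% interval -0.29 to 0.01, limma adjusted p = 0.498), so that its direction turned with that library. The files give Gpr17 the same span as Lims2, a gene on the other strand, which measured 3.40 to 5.08 FPKM.

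Bmp4, a secreted ligand of the TGF-beta family that committed precursors express and that can hold back oligodendrocyte differentiation, was the lowest of the 10 genes. Its values were 1.95, 2.03 and 1.77 FPKM in control replicates 1, 2 and 3 and 1.63, 2.09 and 1.62 FPKM in SMA replicates 1, 2 and 3. SMA replicate 2 had the highest value of all and the other SMA libraries the lowest, so the groups overlapped with or without control replicate 2. The difference was -0.07 over 6 libraries and -0.05 without control replicate 2, and 0.02 after quantile normalization. Without SMA replicate 2 it was -0.15 and the groups were apart, as were those of 8.92% of all genes in that direction, while without SMA replicate 1 or 3 it was -0.037 or -0.034.

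**Figure D3:**
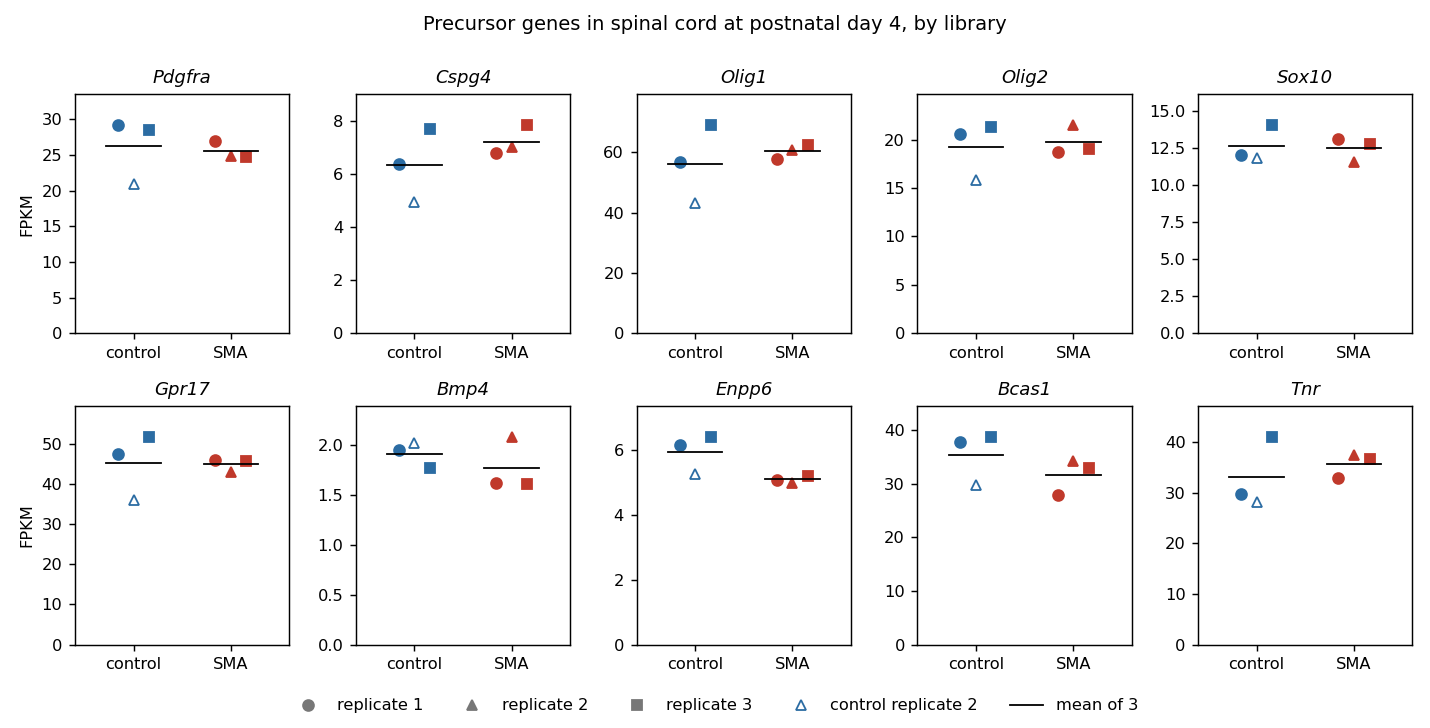
FPKM of the 10 precursor genes in each library, with control in blue, SMA in red, marker shape for the replicate number, control replicate 2 as an open triangle and a line for the mean of 3. Control replicate 2 is the lowest library for Pdgfra, Cspg4, Olig1, Olig2, Gpr17 and Tnr, and all 3 SMA values of Enpp6 lie below its control values.

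Among the OPC surface genes, Pdgfra and Cspg4 gave unlike values. Pdgfra, the receptor for PDGF-A that drives OPC division, measured 29.2, 20.9 and 28.6 FPKM in control replicates 1, 2 and 3 and 27.0, 24.9 and 24.8 FPKM in SMA replicates 1, 2 and 3. Control replicate 2 was the lowest library and the other controls the highest. The means were 26.2 ± 4.62 FPKM in control and 25.5 ± 1.24 FPKM in SMA (SD, n = 3 each), a difference of -0.02 over 6 libraries (95% interval -0.37 to 0.32, limma adjusted p = 0.957). Leaving out control replicate 2, it was -0.17 (95% interval -0.33 to -0.02, limma adjusted p = 0.443; exact permutation p = 0.2).

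Pdgfra is also transcribed in fibroblasts, and the fibroblast list (10 of 10 genes in the files, led by Col1a2) moved between libraries. It summed to 186, 204 and 165 FPKM in control replicates 1, 2 and 3 and to 203, 94.4 and 51.3 FPKM in SMA replicates 1, 2 and 3, with no gene at 0. The collagen gene Col3a1 measured 50.2, 62.0 and 38.8 FPKM in the controls and 53.2, 20.2 and 3.10 FPKM in the SMA libraries. Its difference over 6 libraries, -1.59, was the lowest of the list, in which 7 of 10 genes were below 0. Fbln1, Cemip and Pdgfrl were above 0, at 0.26, 0.13 and 0.01. Pdgfra was highest among the SMA libraries in replicate 1, which held as many fibroblast transcripts as the controls, and nearly the same in replicates 2 and 3, which differed in them. The part of fibroblasts in the Pdgfra level was not tested.

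Cspg4, which encodes the NG2 proteoglycan of OPCs and pericytes, measured 6.36, 4.95 and 7.70 FPKM in control replicates 1, 2 and 3 and 6.80, 7.01 and 7.82 FPKM in SMA replicates 1, 2 and 3. Control replicate 2 was again the lowest, and the other controls spanned most of the SMA range. The difference was 0.18 over 6 libraries (limma adjusted p = 0.687) and 0.04 without control replicate 2 (limma adjusted p = 0.939). The pericyte list (9 of 9 genes in the files) had a mean log2(FPKM + 1) of 2.51, 3.23 and 2.46 in control replicates 1, 2 and 3 and of 2.53, 2.26 and 2.15 in SMA replicates 1, 2 and 3. Vtn, which liver also expresses, had the highest mean only through control replicate 2, with 359 FPKM there and 7.26 to 14.4 FPKM elsewhere, and no gene was at 0. In each of the other 5 libraries Rgs5 was above Vtn, at 13.6 to 24.6 FPKM. In this list Rgs5 and Abcc9 were lower in SMA at an unadjusted p under 0.05 in limma, with differences of -0.39 and -0.40, whereas Cspg4 was not. Neither passed with any SMA library left out, nor did Rgs5 without control replicate 3.

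The transcription factors of the lineage overlapped between the groups with or without control replicate 2. Olig1 measured 56.6, 43.1 and 68.9 FPKM in control replicates 1, 2 and 3 and 57.7, 60.9 and 62.3 FPKM in SMA replicates 1, 2 and 3. Olig2, its neighbour on chromosome 16, 41094 bases away, measured 20.6, 15.8 and 21.3 FPKM in the controls and 18.7, 21.5 and 19.0 FPKM in the SMA libraries. For both genes control replicate 2 was the lowest library and the remaining values overlapped. The difference of Olig1 was 0.12 over 6 libraries and -0.05 without control replicate 2, and that of Olig2 0.04 and -0.08, with limma adjusted p-values from 0.747 to 0.908. The ratio of Olig1 to Olig2, both basic helix-loop-helix proteins, was 2.75, 2.72 and 3.23 in control replicates 1, 2 and 3 and 3.08, 2.84 and 3.28 in SMA replicates 1, 2 and 3, so control replicate 2 did not stand apart in it.

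Sox10, the HMG-box factor that drives myelin genes in oligodendrocytes and Schwann cells, had the smallest relative spread of the 10 genes over the 6 libraries, a coefficient of variation of 7.38%. It was 7.58% without control replicate 2, and Olig2 (6.32%) and Gpr17 (6.87%) then varied less. Sox10 measured 12.1, 11.9 and 14.1 FPKM in control replicates 1, 2 and 3 and 13.2, 11.6 and 12.8 FPKM in SMA replicates 1, 2 and 3. The groups overlapped, and the difference was -0.02 over 6 libraries and -0.06 without control replicate 2. The Schwann cell list (10 of 10 genes in the files, some of which oligodendrocytes share) had a mean log2(FPKM + 1) of 3.18, 3.12 and 3.62 in control replicates 1, 2 and 3 and of 3.39, 2.85 and 1.62 in SMA replicates 1, 2 and 3. SMA replicate 3 was the lowest library for this list, with 1 gene at 0 there and 0 in each other library. The part of Schwann cells in the Sox10 level was not tested.

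Tnr, the extracellular matrix protein tenascin-R made by precursors, oligodendrocytes and some neurons, had a difference above 0 over 6 libraries, which turned to -0.16 with scaling to the neuron list. It measured 29.8, 28.2 and 41.1 FPKM in control replicates 1, 2 and 3 and 32.9, 37.5 and 36.7 FPKM in SMA replicates 1, 2 and 3. Control replicate 3 was the highest library and the other controls the lowest, with the SMA values between them. The difference was 0.13 over 6 libraries (95% interval -0.25 to 0.50, limma adjusted p = 0.756) and 0.02 without control replicate 2. Another control library mattered for Tnr. Without control replicate 3 its difference was 0.29, and Tnr was then the 1 of 10 precursor genes at an unadjusted p under 0.05, with a limma adjusted p of 0.447. In that fit 4.16% of genes were lower and 6.07% higher at this threshold and 0% passed the adjusted one. Groups without overlap were then found for Cspg4, Olig1 and Tnr, higher in SMA (3 of 10, against 20.7% of all genes), and for Enpp6, lower (1 of 10, against 13.5%), so which precursor genes set the groups apart changed with the control library left out.

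Within a library the committed genes can be set against the OPC genes, a comparison that depends little on the total of the library. The mean log2(FPKM + 1) of Gpr17, Bmp4, Enpp6 and Bcas1 minus that of Pdgfra and Cspg4 was -0.08, 0.09 and -0.16 in control replicates 1, 2 and 3 and -0.28, -0.15 and -0.25 in SMA replicates 1, 2 and 3. The SMA libraries held the 2 lowest values, and SMA replicate 2 lay just above control replicate 3, so the groups overlapped by a narrow margin. SMA minus control was -0.18 with all libraries and -0.11 without control replicate 2, a change of over 1.5 times. As a score over chosen genes it carries no test.

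The single ratios differed in what they showed. Enpp6 over Pdgfra was 0.210, 0.251 and 0.224 in control replicates 1, 2 and 3 and 0.188, 0.201 and 0.210 in SMA replicates 1, 2 and 3, so that SMA replicate 3 and control replicate 1 were equal to 3 digits and the others were apart. Bcas1 over Pdgfra was 1.30, 1.42 and 1.35 in the controls and 1.04, 1.37 and 1.33 in the SMA libraries, where only SMA replicate 1 lay outside the control range. The third ratio, Gpr17 over Pdgfra, was 1.63 to 1.81 in control and 1.71 to 1.85 in SMA, and overlapped. Cspg4 over Pdgfra was 0.218, 0.237 and 0.269 in the controls and 0.252, 0.282 and 0.316 in the SMA libraries, with control replicate 3 inside the SMA range.

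**Figure D4:**
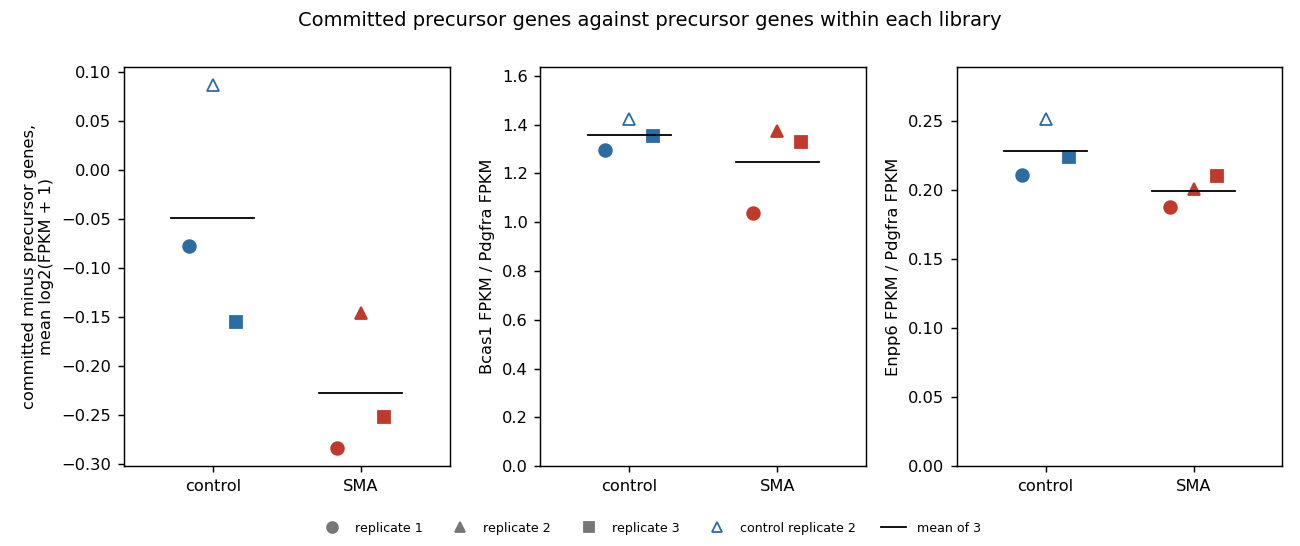
Committed genes against OPC genes within each library: the difference of their mean log2(FPKM + 1), and the FPKM of Bcas1 and of Enpp6 over that of Pdgfra; control in blue, SMA in red, marker shape for the replicate, an open triangle for control replicate 2 and a line for the mean of 3. The difference runs from -0.16 to 0.09 in control and from -0.28 to -0.15 in SMA, and SMA replicate 1 has the lowest Bcas1 ratio, 1.04.

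Other genes of the same stages were taken from lists. Of 18 further OPC genes, 1 was lower and 0 higher by an unadjusted p under 0.05 in limma over 6 libraries, and 2 were lower without control replicate 2, with median differences of 0.16 and -0.06. Without control replicate 3, 1 was lower and 2 higher (Matn4 and Sox5), with 2 of 18 below 0 and a median of 0.19. The most abundant, Ptprz1, a receptor phosphatase of OPCs and astrocytes, measured 119.7, 83.9 and 110.3 FPKM in control replicates 1, 2 and 3 and 108, 108 and 105 FPKM in SMA replicates 1, 2 and 3. Apart from control replicate 2 its SMA values were all below the controls, by a small amount (difference -0.10 without that library). Cspg5 and Cacng4, next in level, differed by 0.04 and 0.07 without control replicate 2.

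The gene behind the count in the OPC list was Sox6, named here after its values were seen, a SOX-D factor that keeps precursors from differentiating early. It measured 21.3, 28.4 and 19.9 FPKM in control replicates 1, 2 and 3 and 15.3, 16.5 and 13.9 FPKM in SMA replicates 1, 2 and 3. All SMA values were below all controls, and control replicate 2 was the highest. Sox6 is also expressed in erythroid cells, whose transcripts were abundant in that library, and their part in its level was not tested. The difference was -0.56 over 6 libraries (limma adjusted p = 0.683) and -0.41 without control replicate 2 (limma adjusted p = 0.289), and it was below 0 in all 18 settings, which are not separate checks. Sox8, the other gene counted without that library, differed by -0.19.

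Of 15 further genes of committed precursors and newly formed oligodendrocytes, 1 was lower and 0 higher by an unadjusted p under 0.05 over 6 libraries, and 3 were lower without control replicate 2, namely Tcf7l2, Ugt8a and Rras2, named after their values were seen. Tcf7l2, a Wnt effector that is switched on for a short time as oligodendrocytes differentiate, measured 7.07, 8.00 and 6.90 FPKM in control replicates 1, 2 and 3 and 4.61, 4.90 and 5.15 FPKM in SMA replicates 1, 2 and 3. The groups were well apart, with or without control replicate 2. The difference was -0.50 over 6 libraries (limma adjusted p = 0.683) and -0.44 without control replicate 2 (limma adjusted p = 0.300), so the gene did not pass the adjusted threshold in either fit. Ugt8a, which makes the galactolipids of myelin, differed by -0.32 and -0.40, with all SMA values below all controls. Fyn, Nfasc, Sirt2 and Tmem163, the most abundant of the list, differed by 0.04, 0.02, 0.02 and 0.20 over 6 libraries and by -0.11, -0.08, -0.07 and -0.06 without control replicate 2. The median difference of the list was -0.11 over 6 libraries and -0.10 without that library, 14 of 15 genes then being below 0, where 49.6% of all genes tested were. It was -0.019 without control replicate 3, with 8 of 15 genes below 0 and 2 lower at this threshold, and -0.050 without SMA replicate 1.

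The next stage, myelin, had lower medians in both fits, and the median over 6 libraries depended on control replicate 3. Of 13 myelin genes tested of 14, 12 were below 0 over 6 libraries and 11 without control replicate 2, with median differences of -0.29 and -0.41. Of all genes tested, 42.0% and 49.6% were below 0. At an unadjusted p under 0.05, 1 was lower in the first fit (Gjc3) and 3 in the second (Gjc3, Cnp and Mag), with 0 higher in both and 0 at an adjusted p under 0.05. Of all genes, 2.39% and 5.20% were lower at the unadjusted threshold. Aspa measured 7.91 FPKM in control replicate 2 and 3.00 to 4.34 FPKM elsewhere, and its difference without that library was 0.23. Mbp, a main protein of compact myelin, measured 458, 445 and 695 FPKM in control replicates 1, 2 and 3 and 375, 457 and 466 FPKM in SMA replicates 1, 2 and 3. Control replicate 3 stood above all other libraries, SMA replicate 1 below, and the rest were alike. Leaving out control replicate 3 brought the median of the list to -0.075, with 10 of 13 genes below 0 and 0 at an unadjusted p under 0.05 in limma. Mbp then went from -0.28 to -0.069, Mobp from -0.29 to -0.045 and Mag from -0.31 to -0.095, while Cldn11 turned to 0.11. Without SMA replicate 1 the median was -0.14. Gjc3 also missed the unadjusted threshold without control replicate 1, SMA replicate 2 or SMA replicate 3. Trf, which liver makes in bulk, measured 4903 FPKM in control replicate 2 and 12.3 to 24.6 FPKM elsewhere. Schwann cells also make several of these transcripts, and their list was lowest in SMA replicate 3. Gjc3 fell in the same order over the SMA libraries, with 9.79, 8.71 and 9.64 FPKM in control replicates 1, 2 and 3 and 8.30, 6.25 and 4.88 FPKM in SMA replicates 1, 2 and 3. Mbp did not share this order. The part of Schwann cells in these levels was not tested.

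**Figure D5:**
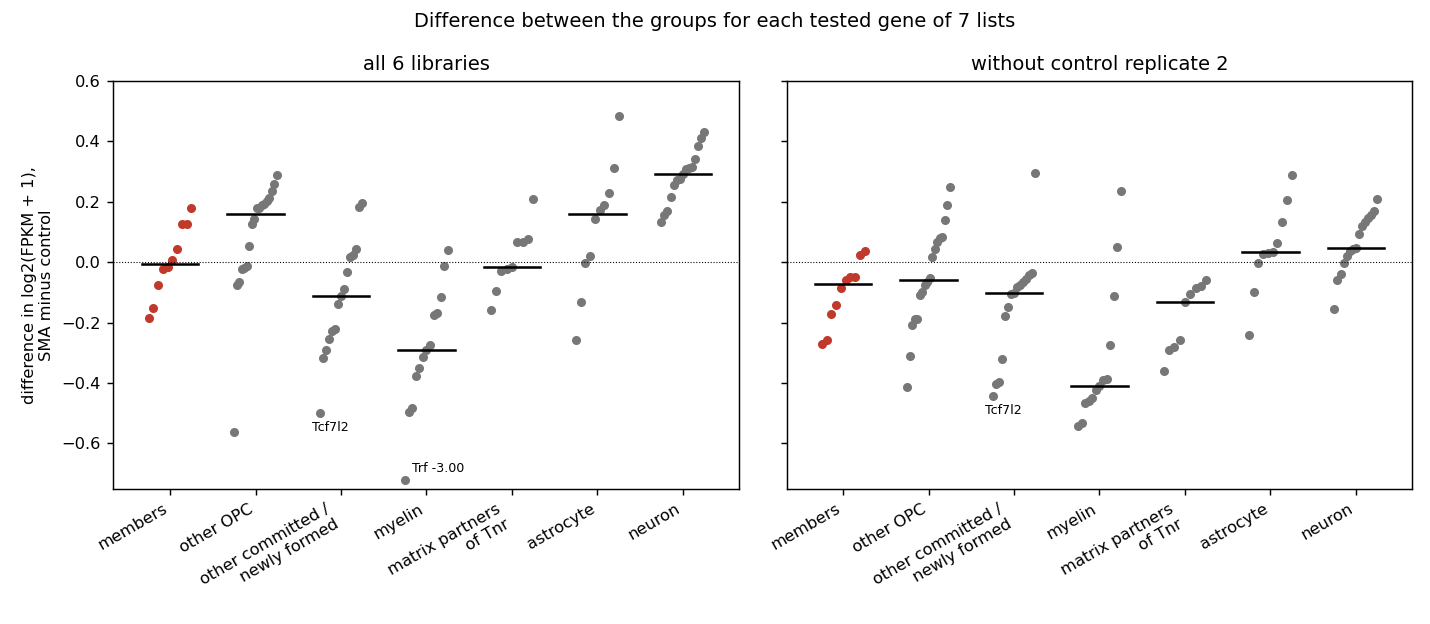
Difference between SMA and control in log2(FPKM + 1) for each tested gene of 7 lists, over all 6 libraries (left) and without control replicate 2 (right); each point is a gene, lines are medians, red marks the precursor genes and Trf, at -3.00, is drawn at the lower edge of the left panel. Without control replicate 2 the medians are -0.07 for the precursor genes, -0.10 for other committed genes and -0.41 for myelin genes.

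The signals that act on these cells showed few differences. Among 5 genes of PDGF ligands and receptors, 0 passed an unadjusted p under 0.05 in limma in either fit; Pdgfa, the main OPC mitogen, measured 9.90, 8.10 and 11.7 FPKM in control replicates 1, 2 and 3 and 10.7, 12.5 and 13.3 FPKM in SMA replicates 1, 2 and 3, and overlapped. Pdgfa was higher at this threshold without control replicate 3, and Pdgfrb lower without SMA replicate 1. Among 12 Sonic hedgehog genes, which specify the lineage in the ventral cord, 1 was higher by an unadjusted p under 0.05 in both fits. This was the coreceptor gene Boc, with 4.05, 3.88 and 3.96 FPKM in the controls and 5.27, 5.33 and 4.82 FPKM in the SMA libraries, a difference of 0.31 (limma adjusted p = 0.683), which missed the unadjusted threshold without SMA replicate 1 or SMA replicate 2. The most abundant, Ptch1 and Smo, differed by 0.16 and -0.10.

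Among 21 BMP signalling genes, 2 were lower and 0 higher by an unadjusted p under 0.05 in limma over 6 libraries, and 2 of 20 were lower without control replicate 2. Id2, an inhibitor of helix-loop-helix proteins that BMPs induce, was in both counts, with 37.6, 48.8 and 34.1 FPKM in control replicates 1, 2 and 3 and 29.1, 30.8 and 28.7 FPKM in SMA replicates 1, 2 and 3. Its groups did not overlap, and the difference was -0.42 and -0.27 (limma adjusted p = 0.683 and 0.313). The others were Bmp5, which was below the filter without control replicate 2, and Id3, at -0.43 without it. These counts hung on single libraries, since 1 gene was lower without SMA replicate 1 (Bmp5) and 0 without SMA replicate 2 or SMA replicate 3, and the median of the list turned from 0.029 to -0.025 without SMA replicate 2 and to -0.060 without control replicate 2. Id4, the most abundant, Bmpr2 and Bmpr1a differed by 0.09, 0.11 and -0.06 over 6 libraries.

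Of 9 matrix partners of tenascin-R, such as contactin 1, neurocan and brevican, 0 passed an unadjusted p under 0.05 over 6 libraries. In the 5 libraries without control replicate 2, 1 was lower, the link protein gene Hapln1 (difference -0.36), and all 9 were below 0, with a median of -0.13. Without control replicate 3 the median was 0.14, with 1 of 9 below 0. Cntn1, the most abundant, measured 156, 84.5 and 158 FPKM in control replicates 1, 2 and 3 and 138, 153 and 151 FPKM in SMA replicates 1, 2 and 3. Tnr itself did not share that direction, at 0.02.

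The lists of neighbouring cell types give the setting for these values. Neuronal genes (15 tested) had a median difference of 0.29 over 6 libraries and 0.05 without control replicate 2, with 0 lower in either fit and 0 and 3 higher by an unadjusted p under 0.05 in limma. Leaving out control replicate 1 or 3 instead gave 3 or 2 higher. Astrocyte genes (10 tested) had medians of 0.16 and 0.03, with Aldoc higher in both fits and Aqp4 lower in the second; Aldoc did not pass without control replicate 3 or with any SMA library left out. Of 8 microglial and 10 Schwann cell genes 0 passed in either fit, of 10 fibroblast genes 1 was lower in the first (Lum) and 0 in the second, and of 24 hepatocyte and 9 erythroid genes 0 passed over 6 libraries. Without control replicate 2, 0 of 19 hepatocyte genes passed. The fibroblast medians were -0.77 and -0.64 and the Schwann cell medians -0.44 and -0.51. SMA replicate 1 held the most of both among the SMA libraries. Leaving it out put 6 of 10 fibroblast and 5 of 10 Schwann cell genes lower at an unadjusted p under 0.05 in limma. At an adjusted p under 0.05 there were 0, and the medians were -1.17 and -0.68. Of all genes tested in that fit, 1.79% were lower and 1.39% higher at the unadjusted threshold. Without SMA replicate 3, 0 genes of either list passed it, and the medians were -0.33 and -0.23. The neuronal median thus went from 0.29 to 0.05, and that of the further OPC genes from 0.16 to -0.06, on leaving out 1 library.

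The genes most like the precursor genes over the libraries were found by Pearson correlation of log2(FPKM + 1) with the mean of the 10 genes, as a description across 17078 other genes. Over 6 libraries the nearest included Acly, Sorl1, Hoxd8 and Arhgap36, with r from 0.995 to 0.999, and 736 genes had r over 0.9 (465 of 17066 without control replicate 2). Acly, which makes cytosolic acetyl-CoA for lipid synthesis, measured 59.9, 45.6 and 69.4 FPKM in control replicates 1, 2 and 3 and 55.7, 60.0 and 59.2 FPKM in SMA replicates 1, 2 and 3. Its highest library was control replicate 3 and its lowest control replicate 2, as for Olig1, Gpr17 and Tnr. Without control replicate 2 the nearest included Abl2, Tbc1d15, Hspa12a and Hoxc10, with r from 0.997 to 0.998 over 5 libraries.

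The spans of the genes bear on what the values count. The files give loci on mm10, the same assembly as GRCm38, and 4 of 10 precursor genes have the span that GENCODE M21 gives them. In 7 of 10 a gene on the other strand overlaps the annotated gene. The libraries were prepared to keep strand, but whether counting used it is not given in the sources used here, so it is open whether reads of such pairs were told apart. The genes that share a whole span with a precursor gene were low, at most 0.389 FPKM for Gm42803 at Pdgfra, 0.384 FPKM for Bcas1os1 at Bcas1, 4.55 FPKM for Gm37731 at Tnr and 5.08 FPKM for Lims2 at Gpr17.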

How the data were processed

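Bulk-seq files of 6 spinal cord libraries, 3 labelled control and 3 labelled SMA, were used. Each deposited file holds FPKM per gene; per the submitters' notes HISAT2 and Cufflinks were used with mm10, in versions not given in the sources used here. Genes absent from a library were set to 0. Those whose mean reached 0.5 FPKM were compared on log2(FPKM + 1) with limma 3.58.1 in R 4.3.3 (lmFit, eBayes with trend, no covariate, two-sided, Benjamini-Hochberg adjustment over all genes tested), and single genes also with an exact permutation test. The fit was tested on simulated data. The number of reads is unknown; relative depth, from values under 0.15 FPKM, was 1.00 to 1.16 of that of SMA replicate 1. The members and the 15 other gene lists were chosen with earlier results of these data known. Named genes are the members, Smn1, of each list up to 4 with the highest mean FPKM and those past an adjusted p of 0.05, and the 5 most correlated with the members' mean; list genes named for an unadjusted p were chosen after their values were seen. Of 17 alternatives, 4 were added after seeing the data. RefSeq promoters (GRCm38.p6) and GENCODE M21 were used for sequence and annotation. Some list genes that this rule names are not reported here.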

Additional observations from a re-analysis of the deposited data

How the results depend on the processing

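Of 170 differences of precursor genes under 17 alternatives, 138 kept their direction and stayed short of an adjusted p under 0.05, and the others turned in sign. The 138 include values that could not turn. The filter settings and the fit with the replicate number as a block cannot change a difference and repeat the main value. Scaling to the mean of the neuron list, which was lowest in control replicate 2, moved the median of all genes by -0.24 and gave Cspg4 -0.072, Olig1 -0.16, Olig2 -0.23, Gpr17 -0.27 and Tnr -0.16; 4 precursor genes then had an unadjusted p under 0.05, all lower (of all genes 4.84% lower and 0.304% higher), 5 had groups without overlap, all lower (18.2% of all genes), and the precursor median was -0.27 against -0.20 for all genes. Sox10 was 0.0037 at the same FPKM total, Gpr17 -0.035 and Bmp4 0.017 after quantile normalization, and Gpr17 -0.032 at the same total without hepatocyte and erythroid genes. Of the precursor genes, 0 had groups without overlap at the same FPKM total, against 6.55% of all genes lower and 7.0% higher. After quantile normalization it was again 0, against 6.14% of all genes lower and 11.3% higher.

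Leaving out 1 library at a time gave ranges of -0.17 to 0.059 for Pdgfra, -0.051 to 0.28 for Olig1, -0.084 to 0.12 for Olig2, -0.059 to 0.054 for Sox10 and -0.14 to 0.11 for Gpr17. Over these 6 fits, 0 to 3 precursor genes had an unadjusted p under 0.05 (of all genes 0.731% to 5.20% lower and 1.25% to 6.07% higher), 1 to 4 had groups without overlap (8.74% to 13.9% lower and 13.5% to 21.6% higher) and 0 to 2 of all genes had an adjusted p under 0.05, and the stage difference between SMA and control was -0.23 to -0.11. Rescaling was combined with leaving out control replicate 2 after seeing the data. Cspg4 was then -0.011 at the same total and -0.018 with the neuron scaling, and Tnr -0.027 and -0.036. At the same total, after quantile normalization and with the neuron scaling, Olig1 was -0.10, -0.061 and -0.11, Olig2 -0.13, -0.081 and -0.14, and Gpr17 -0.19, -0.14 and -0.20. In the same order 4, 3 and 4 precursor genes had an unadjusted p under 0.05, all lower (8.82%, 5.23% and 8.12% of all genes), 4, 4 and 5 had groups without overlap, all lower (20.73%, 13.52% and 20.04%), and 1, 2 and 1 of all genes had an adjusted p under 0.05. The cause of these changes was not tested. The scaling without hepatocyte and erythroid genes was also chosen after seeing the data.

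Among genes with an unadjusted p under 0.05, 41.3% were lower with the values as deposited, 34.5% after quantile normalization, 53.5% at the same FPKM total, 64.4% at the same total without hepatocyte and erythroid genes and 94.1% with the neuron scaling. Same-numbered libraries did not deviate together from the means of their groups (r of -0.037, 0.016 and 0.077). With 3 libraries per group and control replicate 2 apart from the rest, this cannot settle whether the numbers pair the samples. With the replicate block, 0 precursor genes had an unadjusted p under 0.05 and 0 genes an adjusted p under 0.05. At the unadjusted threshold 303 genes were then lower and 356 higher. FPKM hold no read counts, so counting error could not be given.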

Other observations

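Without control replicate 2, 2 genes outside the lists had an adjusted p under 0.05 in limma, named here after their values were seen. Rpph1, the RNA component of RNase P, measured 72.3, 74.8 and 73.1 FPKM in control replicates 1, 2 and 3 and 109, 114 and 115 FPKM in SMA replicates 1, 2 and 3 (limma adjusted p = 0.0424 without control replicate 2 and 0.683 with it). All SMA values were above all controls, control replicate 2 included. Snora74a, a small nucleolar RNA, was absent from the values of control replicates 1 and 3, taken as 0. It measured 2.99 FPKM in control replicate 2 and 10.5, 7.85 and 5.56 FPKM in SMA replicates 1, 2 and 3. The limma adjusted p was 0.0215 without control replicate 2 and 0.683 with it. In the fit with the lower p, Snora74a passed the filter only through the SMA libraries and was compared with values set to 0 alone. That p is thus no evidence of a change and gives no size of one. Both are short noncoding RNAs.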
